A study of Rattus norvegicus with 6 samples.

Results

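The platelet-derived growth factor (PDGF) family is represented here by the 4 ligand genes Pdgfa, Pdgfb, Pdgfc and Pdgfd and the 2 receptor genes Pdgfra and Pdgfrb. These 6 genes were picked by symbol from a table of 22574 gene symbols, and all 6 were listed in it. RNA was sequenced from rat aortic smooth muscle cells (RASMCs), primary cells grown from the aortas of male Sprague-Dawley rats after removal of adventitia and endothelium, in 6 libraries. In 3 libraries the cells had received H3CIT, citrullinated histone H3, at 0.03 μM together with double-stranded DNA (dsDNA) at 300 ng/ml, which are both components of extracellular traps. In the other 3 libraries the cells were controls given bovine serum albumin (BSA). The time of exposure was not given in the sources used here. The study's reporting summary describes in vitro replicates as separate wells of cells from the same rat, so p-values here measure the spread between wells and libraries, not between animals. The comparison asks how components of extracellular traps change transcript levels in smooth muscle cells.

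PDGFs are secreted dimers that drive proliferation and migration of mesenchymal cells. PDGF-A signals through the receptor encoded by Pdgfra, PDGF-B through both receptors, PDGF-C chiefly through Pdgfra and PDGF-D chiefly through Pdgfrb. In the artery wall PDGF-B from endothelium and platelets is a classical mitogen for smooth muscle, and it lowers contractile genes during phenotypic switching.

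In these cells the transcripts of Pdgfb and Pdgfd were higher after H3CIT+dsDNA, while no difference was called for Pdgfa, Pdgfc and Pdgfrb. Pdgfb was 4.09-fold higher and Pdgfd 2.23-fold higher, both from low control levels. Pdgfra did not pass the filter on low counts. Of the 5 genes of the family tested, 2 were called higher and 0 lower. Of all 12591 genes tested with edgeR, 2.2% were called, 1.94% higher and 0.262% lower, a call being a p-value below 0.05 after Benjamini-Hochberg adjustment. These shares depend on single libraries, with 1.29% called, 1.15% higher and 0.133% lower, without H3CIT+dsDNA replicate 1 and 2.8% called, 2.35% higher and 0.447% lower, without control replicate 3. Without control replicate 1 the share called was 1.44%. The call of Pdgfb held under all 16 alternative settings and that of Pdgfd under 8 of them. The counts of Pdgfb were unusually alike within each group, and its call and p-value rest on them as deposited. Library totals ran from 17573905 to 18742395 counts. Levels are given as CPM, counts relative to the library total after TMM scaling, which adjusts for library size and composition.

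**Figure D1:**
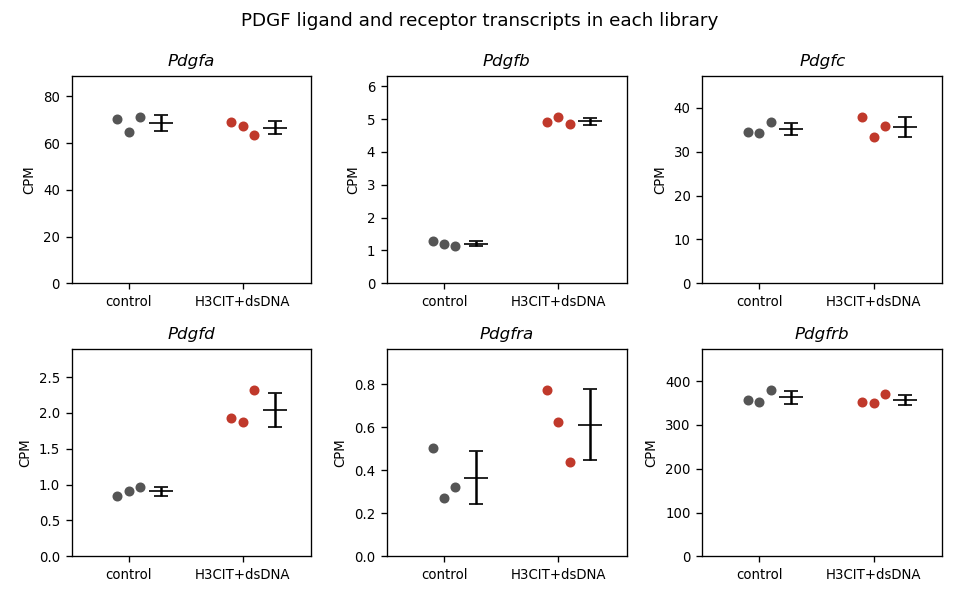
Level of each PDGF ligand and receptor transcript in CPM (linear axis from 0, scaled separately for each gene) in the 3 control and the 3 H3CIT+dsDNA libraries. Points are libraries, and the bar beside them is the mean with its SD. The groups are apart for Pdgfb and Pdgfd and overlap for Pdgfa, Pdgfc, Pdgfra and Pdgfrb.

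Among the ligands, Pdgfa, which encodes the A chain, had 1249, 1188 and 1154 counts after H3CIT+dsDNA and 1255, 1200 and 1318 counts in controls. The groups overlapped. The levels were 66.6 ± 2.74 CPM and 68.7 ± 3.48 CPM (SD, n = 3 each), a log2 fold change of -0.04 with a 95% interval from -0.15 to 0.07 (adjusted p = 0.754, edgeR). Pdgfc, whose product is secreted in a latent form that needs cleavage of its CUB domain, had 685, 586 and 651 counts after H3CIT+dsDNA and 614, 634 and 680 counts in controls. The groups overlapped for this gene as well. Its log2 fold change was 0.02 with a 95% interval from -0.12 to 0.16 (adjusted p = 0.911, edgeR).

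Pdgfb, which encodes the B chain, had 89, 89 and 88 counts after H3CIT+dsDNA and 23, 22 and 21 counts in controls. All 3 H3CIT+dsDNA libraries were above all 3 controls, a separation in CPM that 19.1% of all genes tested showed in either direction. The levels were 4.93 ± 0.104 CPM against 1.20 ± 0.0799 CPM (SD, n = 3 each), with a log2 fold change of 2.03 (standard error 0.19, 95% interval 1.62 to 2.46, adjusted p = 2.05e-05, edgeR). The spread of these counts was small for their size. The SD was 0.577 counts after H3CIT+dsDNA and 1 count in controls, where the square root of the mean, the typical counting error of a single library, was 9.42 and 4.69 counts.

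The closeness of counts within a group was compared between genes called and not called. This is a description, since a call itself depends on the spread within groups and Pdgfb, which prompted the comparison, is among the genes counted. Among genes tested with group means between 20 and 100 counts in both groups, the counts of each group lay within a range of 2 for 3 of 14 genes called and for 1 of 1772 genes not called. In the H3CIT+dsDNA group alone this held for 6 of the 14 called genes (42.9%) and 2.77% of those not called, and in controls alone for 6 of the 14 (42.9%) and 2.31%. The 3 called genes with such counts in both groups were Pdgfb, Ereg (87, 88 and 87 against 21, 22 and 23 counts in controls) and Nppc (67, 66 and 65 against 22, 21 and 20 counts), and the other was Pole2. The control counts 23, 22 and 21, library by library, were shared by 4 genes, Pdgfb, Nr4a3, Il12a and Fignl1, of which 3 were called. For comparison, 6 of the 211 genes tested with a control mean between 20 and 24 counts were called. That set is not separate, since the 6 include Pdgfb, Nr4a3 and Il12a, and Ereg and Nppc as well. Ereg, Nppc, Pole2, Il12a and Fignl1 were chosen after their values were seen, and how such counts arose was not tested. All alternatives use the same counts, so the number of them that keep the Pdgfb call does not bear on this pattern. The same holds for the other called genes with such counts. A setting added after seeing the data took the spread from genes of like abundance in place of Pdgfb's own. It also used edgeR's likelihood ratio test in place of the test of the main fit. By that test the adjusted p of Pdgfb was 1.07e-10, the lowest of the 16 alternatives, which reached up to 0.000375. The setting called 459 of all genes tested, against 277 in the main fit. What the change of spread alone does to the p-value was not tested.

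Pdgfd, which encodes a ligand that, like PDGF-C, is secreted with a CUB domain, had 35, 33 and 42 counts after H3CIT+dsDNA and 15, 17 and 18 counts in controls. The groups did not overlap. The levels were 2.04 ± 0.240 CPM against 0.909 ± 0.0650 CPM (SD, n = 3 each), with a log2 fold change of 1.16 (standard error 0.25, 95% interval 0.62 to 1.71, adjusted p = 0.0303, edgeR). This call is less firm than that of Pdgfb. With DESeq2, the tool that the study's methods name for this comparison, the adjusted p was 0.112. In edgeR it was between 0.0581 and 0.148 when any 1 of the 6 libraries was left out. None of these gives a call, and the adjusted p ran from 0.0151 to 0.148 over all 16 alternatives. The log2 fold change lay between 1.06 and 1.21 over the same alternatives.

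The receptors differed greatly in depth. Pdgfrb, the receptor typical of smooth muscle and other mural cells, had 6384, 6168 and 6711 counts after H3CIT+dsDNA and 6388, 6526 and 7028 counts in controls. The groups overlapped. The levels were 357 ± 10.8 CPM and 363 ± 14.1 CPM (SD, n = 3 each), and the log2 fold change was -0.02 with a 95% interval from -0.10 to 0.06 (adjusted p = 0.848, edgeR). This interval corresponds to between 0.930 and 1.04 times the control level. Pdgfra, in the vessel wall a receptor typical of fibroblasts, had 14, 11 and 8 counts after H3CIT+dsDNA and 9, 5 and 6 counts in controls. The sums were 33 counts (exact Poisson interval at 95%, 22.7 to 46.3) and 20 counts (12.2 to 30.9), intervals that cover counting error only and overlap. Pdgfra did not pass the filter on low counts, and a fit without that filter put its log2 fold change at 0.73 with a standard error of 0.49 (95% interval -0.28 to 1.78, adjusted p = 0.621, edgeR). Pdgfra was not called in that fit, with DESeq2 or in the 4 fits with a library left out in which it passed the filter.

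Ratios of 2 genes within a library do not depend on how libraries are scaled. They were taken as log2 of count ratios, with 0.5 added to each count, and not corrected for gene length, so only their change between groups is read. The log2 ratio of Pdgfb to Pdgfa counts was -3.80, -3.73 and -3.71 in the libraries with H3CIT+dsDNA and -5.74, -5.74 and -5.94 in controls. The B chain transcript thus rose relative to the A chain transcript by 2.06 on the log2 scale, with all 3 H3CIT+dsDNA libraries above all controls. The ratio of Pdgfb to Pdgfrb was 2.04 higher on the log2 scale and that of Pdgfd to Pdgfc was 1.12 higher, also without overlap. The exact permutation test, two-sided, gave p = 0.1 for each of the 3 ratios, the smallest value that 3 libraries against 3 allow, and adjustment over the 3 leaves it at 0.1. A planned ratio of Pdgfra to Pdgfrb was not formed, because Pdgfra had under 10 counts in some libraries.

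The genes nearest to Pdgfb in pattern were Kat5, an acetyltransferase gene, Il18, a cytokine gene, and Casp9, the initiator caspase of mitochondrial apoptosis. Likeness was the root mean square difference of log2 CPM, centred on each gene's mean, over the 6 libraries, and it was 0.0562, 0.0697 and 0.0720. All 3 were called higher. Kat5 had 916, 942 and 943 counts after H3CIT+dsDNA and 223, 221 and 220 in controls. The groups of this gene did not overlap. Its control counts were also close for their size, with an SD of 1.53 counts where the square root of the mean was 14.9. The counts of Il18 were 211, 222 and 233 in treated cells, against 54, 55 and 56 in control cells, evenly spaced in both groups. The genes nearest to Pdgfd were Pxk, Myocd and Slamf1, at 0.0758, 0.0862 and 0.0967. Pxk had 241, 254 and 274 counts against 113, 123 and 133 in controls, the latter also evenly spaced. Slamf1, with at most 17 counts in a library, was not called.

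The neighbours of the genes in the rat assembly GRCr8, used only for gene order, were read for comparison. Of the tested genes next to Pdgfb, Cbx7 had a log2 fold change of -0.09 and Rpl3 one of -0.03, and neither was called. Next to Pdgfd lie Casp12, an inflammatory caspase gene, and Dync2h1. Casp12 was called higher with a log2 fold change of 1.08 (adjusted p = 1.31e-05, edgeR), and Dync2h1 at 0.34 was not called. In that annotation neither neighbour overlaps Pdgfd.

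Because Pdgfb and Pdgfd both rose, the 250 bases before their annotated starts are printed from a table of RefSeq promoters (build GRCr8), in which 5 of the 6 genes were matched, all but Pdgfrb. Capitals mark GC boxes, here the letters GGGCGG on either strand, a motif bound by SP1 and related factors. Pdgfb lies on the minus strand at chr7:113438344-113438593 and Pdgfd on the plus strand at chr8:11773258-11773507, and each sequence is written 5′ to 3′ along its gene.
Pdgfb: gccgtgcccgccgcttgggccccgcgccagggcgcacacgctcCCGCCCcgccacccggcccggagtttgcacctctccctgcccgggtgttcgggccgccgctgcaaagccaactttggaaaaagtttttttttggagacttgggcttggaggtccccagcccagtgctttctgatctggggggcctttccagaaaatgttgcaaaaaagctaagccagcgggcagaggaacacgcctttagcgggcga
Pdgfd: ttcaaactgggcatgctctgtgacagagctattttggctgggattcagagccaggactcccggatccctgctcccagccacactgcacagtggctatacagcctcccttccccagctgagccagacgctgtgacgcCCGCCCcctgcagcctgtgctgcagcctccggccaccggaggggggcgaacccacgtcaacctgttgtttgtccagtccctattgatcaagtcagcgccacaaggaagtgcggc
Each window held 1 GC box, as did that of Pdgfa, which was not called, while those of Pdgfc and Pdgfra held 0. Of all 33469 promoter windows of this length, 30.5% held the motif. GC content was 63.6% before Pdgfb and 61.6% before Pdgfd, 60.8% and 56.0% before Pdgfa and Pdgfc, which were not called, and 47.2% before Pdgfra, against a median of 51.2% over all windows. A search of both strands for the TATA box TATAAA, for the AP-1 motif TGACTCA and for the EGR motif GCGTGGGCG found none of them in the 5 windows, and 12.9%, 4.05% and 0.478% of all windows held them. A match of letters is not evidence of a bound factor.

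Beyond the ligands and receptors, 10 lists of pathway genes held 163 genes of the table, of which 151 were tested. Of these 12 were called higher and 5 lower, and 127 had a log2 fold change within 0.25 of 0. The shares called were 7.95% higher and 3.31% lower, or 11.3% in all, against 1.94%, 0.262% and 2.2% of all genes tested. The lists were chosen with earlier results of these data known, so these shares are a description. The median log2 fold change was 0.00 in the lists and 0.00 over all genes tested.

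Genes that process or bind PDGFs had small differences. The list held 14 genes, of which 10 were tested and 0 called by edgeR, DESeq2 or limma, with log2 fold changes from -0.26 to 0.14, and 2 had an unadjusted p under 0.05 in edgeR. Sparc, a matrix protein that binds PDGF-B, was at 2996 ± 65.6 CPM after H3CIT+dsDNA and 3081 ± 65.3 CPM in controls (SD, n = 3 each). Thbs1, the gene of the matrix protein thrombospondin 1, had a log2 fold change of 0.03. Plat, the tissue plasminogen activator that cleaves latent PDGF-C, had a log2 fold change of 0.01, Furin, which cleaves the A and B chains, one of -0.05, and the co-receptor genes Nrp1 and Lrp1 ones of 0.13 and 0.01. Among 8 related ligands tested, the growth factors of the VEGF, CSF1, KIT and FLT3 systems, Kitlg alone was called. Kitlg was at 44.1 ± 0.155 CPM against 35.6 ± 1.79 CPM in controls (SD, n = 3 each), higher by 0.31 on the log2 scale (adjusted p = 0.00883, edgeR). It lost its call without H3CIT+dsDNA replicate 1 (adjusted p = 0.0556) and without control replicate 1 (adjusted p = 0.0565), and was called in 14 of 16 alternatives (adjusted p from 0.00292 to 0.0565). Vegfb and Csf1 had log2 fold changes of -0.07 and -0.06. None of the 4 related receptors tested was called by edgeR, DESeq2 or limma, and 0 had an unadjusted p under 0.05 in edgeR. The VEGF receptor gene Flt1 was at 0.09 and the CSF1 receptor gene Csf1r at -0.13.

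Adaptors and kinases that bind the activated receptors differed little between the groups. Of 24 listed, 22 were tested and 0 called by edgeR, DESeq2 or limma, with log2 fold changes from -0.08 to 0.21, and 3 had an unadjusted p under 0.05 in edgeR. Src had a log2 fold change of -0.05 and Plcg1, phospholipase C gamma, one of 0.01. Further downstream, 21 Ras-MAPK, AKT, PKC and STAT genes were tested, of which 2 were called higher and 1 lower. Akt1, a kinase acting below PI3K, fell from 9565, 9400 and 9243 counts in controls to 3087, 3674 and 3638 counts after H3CIT+dsDNA, or -1.41 in log2 units (adjusted p = 5.96e-09, edgeR). Jak2, a tyrosine kinase that phosphorylates STATs, rose by 1.68 (adjusted p = 6.85e-08) and Braf, a kinase that activates MEK, by 0.39 (adjusted p = 0.0168) on the log2 scale. The Jak2 counts were 859, 853 and 863 after H3CIT+dsDNA, close for their size, and 234, 330 and 256 in controls, which were not. Braf lost its call without H3CIT+dsDNA replicate 3 (adjusted p = 0.0709) and without control replicate 1 (adjusted p = 0.0902), and was called in 14 of 16 alternatives (adjusted p from 0.00214 to 0.0902). Mapk3, which encodes ERK1, was at -0.03 and Stat3 at -0.02.

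Of 23 attenuators tested, 3 were called higher and 0 lower. Socs1, a suppressor of JAK-STAT signaling, had a log2 fold change of 3.41. Socs3, of the same family, had 989, 888 and 989 counts after H3CIT+dsDNA and 655, 559 and 588 counts in controls, which is 0.70 higher in log2 units (adjusted p = 4.14e-05, edgeR). The phosphatase gene Dusp1, at -0.01, and Lrig1, at 0.00, were not called. Spry1 was at 0 counts in every library, which allows up to 3 counts in each, or 0.162 to 0.170 CPM.

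Early genes that PDGF is known to induce mostly differed little. Of 26 tested, 2 were called higher and 0 lower, and their median log2 fold change was -0.02 against 0.00 over all genes tested. Klf4, a factor that represses contractile genes, had 137, 110 and 141 counts after H3CIT+dsDNA and 34, 45 and 43 counts in controls, a log2 fold change of 1.69 (adjusted p = 3.69e-05, edgeR). Nr4a3, a nuclear receptor of the immediate-early class, had 60, 67 and 66 counts against the control counts it shares with Pdgfb, a log2 fold change of 1.57 (adjusted p = 0.000647). Ccnd1, cyclin D1, was at 0.01. Cxcl1 was at -0.08, and it was called lower without control replicate 3, at -0.22 (adjusted p = 0.0240, the lowest of 16 alternatives, the highest being 0.989). Has2 was at 0 counts in every library, as were 5367 of the 22574 gene symbols in all. Whether such zeros reflect absent RNA or the counting was not tested.

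The list of factors known to act on PDGF gene promoters held 12 genes, all tested, of which 2 were called. Sp3, which binds GC boxes, was higher by 0.49 in log2 units (adjusted p = 0.0144, edgeR) and lost its call when H3CIT+dsDNA replicate 1 was left out (adjusted p = 0.0909, the lowest over alternatives being 0.000213). Hif1a, the hypoxia factor, was at 0.17 (adjusted p = 0.0453) and kept its call in 6 of 16 alternatives. Egr1, which binds the PDGF-A and PDGF-B promoters in injured artery, had a log2 fold change of 0.00, and Rela, an NF-kB subunit, one of -0.01.

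Contractile genes that PDGF-BB is known to lower gave 4 lower and 1 higher among 15 tested, with a median log2 fold change of -0.06. Cnn1, calponin, fell from 8766, 6566 and 7555 counts to 2546, 2558 and 2448 counts, a log2 fold change of -1.57 (adjusted p = 9.54e-08, edgeR). Acta2 and Tagln had log2 fold changes of -0.69 and -0.40. Smtn, smoothelin, was at -0.21 (adjusted p = 0.0386) and kept its call in 7 of 16 alternatives. Myocd, the co-activator of serum response factor that drives these genes, rose with 725, 596 and 757 counts against 320, 330 and 343, a rise of 1.09 in log2 units (adjusted p = 1.60e-06). Actg2, at -0.09, and Tpm2, at -0.06, were not called, and reads of the actin genes can be shared between near-identical copies. Of 12 genes of S phase and mitosis, 1 was called, Pcna, the sliding clamp of DNA replication, which rose from 667, 666 and 656 counts to 1658, 1681 and 1880 counts, a log2 fold change of 1.42 (adjusted p = 1.71e-09, edgeR). Cdkn1a was at -0.04 and Mcm2 at -0.17, the latter called lower in 2 of 16 alternatives. These were without control replicate 1 (-0.21, adjusted p = 0.0465) and with robust dispersion (adjusted p = 0.0378), with 0.261 the highest adjusted p of the 16. Mki67 and Top2a went the other way, at 0.259 and 0.185, and were not called (adjusted p = 0.0975 and 0.113, edgeR). In edgeR 4 of the 12 genes had an unadjusted p under 0.05.

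The labelled cell type was checked by marker genes. The 6 smooth muscle markers were all detected. Their summed level was 5451, 5815 and 6006 CPM after H3CIT+dsDNA and 8632, 8918 and 8173 CPM in controls. Myh11, smooth muscle myosin, was at 375 CPM after H3CIT+dsDNA and 360 CPM in controls, a log2 fold change of 0.06. Acta2 was the most abundant of the 6. The sum of the other 5 genes, mostly from Tagln (2032 against 2690 CPM in controls), was lower after H3CIT+dsDNA as well. The markers did not move together, since 4 were called lower and Myocd was called higher (38.5 against 18.1 CPM), and no difference was called for Myh11. This sum moved with the group, as Pdgfb and Pdgfd did, and its part in their results was not tested. In bulk RNA, fewer cells of a type and less RNA per cell cannot be told apart.

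No gene in the marker lists of 4 other cell types was called by edgeR, DESeq2 or limma. Of 7 fibroblast markers 3 were tested, 1 with an unadjusted p under 0.05 in edgeR, and their sum was 786, 819 and 772 CPM after H3CIT+dsDNA and 852, 830 and 839 CPM in controls. This sum was lower after H3CIT+dsDNA without overlap and came almost wholly from Mfap5, since the other 6 together reached 2.20 to 4.43 CPM in a library and overlapped between the groups. Cd34 was at 0 counts in all libraries, Dcn at 9 counts or fewer, and Pi16 had a log2 fold change of -0.43. The 7 pericyte markers, 4 of them tested, summed to 119, 118 and 120 CPM after H3CIT+dsDNA and to 113, 117 and 118 CPM in controls, mostly from Mcam, the lowest sum after H3CIT+dsDNA being above the highest in controls by under 1 CPM, and Notch3 had a log2 fold change of 0.08. The 8 endothelial markers, genes of cells that make much of the PDGF-B of the artery, summed to 8.44, 8.91 and 8.76 CPM after H3CIT+dsDNA and to 9.92, 9.81 and 10.6 CPM in controls. This sum was lower after H3CIT+dsDNA without overlap, while without Cdh5 the groups overlapped (4.14, 3.97 and 4.74 CPM against 4.03, 5.55 and 5.28 CPM). Cdh5 was the most abundant of them and Tie1 had a log2 fold change of -0.20, 4 were tested with 0 at an unadjusted p under 0.05 in edgeR, and Cldn5 was at 0 counts throughout. The 9 macrophage markers, 5 of them tested, summed to 72.7 to 76.6 CPM, mostly from Cd14, and the groups overlapped. Aif1, a macrophage marker below the filter on low counts, had 8, 9 and 9 counts after H3CIT+dsDNA and 2, 2 and 3 counts in controls, without overlap. Its sums were 26 counts (exact Poisson interval at 95%, 17.0 to 38.1) and 7 counts (2.81 to 14.4), and it was chosen after its values were seen. The macrophage markers Ptprc, Itgam and C1qa had at most 2 counts in a library. The part of these sums and of Aif1 in the results for Pdgfb and Pdgfd was not tested.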

How the data were processed

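The libraries were stranded mRNA preparations. The authors mapped reads to Rnor6.0 with TopHat 2.1.1, counted them per gene with HTSeq 0.6.0 and deposited whole-number counts per gene symbol. The submitters' processing notes also list Cufflinks 2.2.1 and Cuffdiff. For differential expression the study's methods name DESeq2, which is an alternative here. The strand setting was not given in the sources used here, so overlapping and antisense genes can share reads. Columns matched the sample titles, and no column lacked a sample.

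Low counts were removed by filterByExpr and libraries scaled by TMM, and edgeR 4.0.16 (R 4.3.3) ran its quasi-likelihood test, two-sided, with the Benjamini-Hochberg procedure across 12591 genes and a threshold of 0.05. Alternatives used DESeq2 1.42.0, limma 3.58.1, other scalings, filters and dispersions, a replicate block, and omission of each library. Named were all family genes and, in each list, up to 4 called genes per direction, the 2 most abundant genes not called, and the 3 nearest patterns of each called family gene, with some genes that this rule picks left out. Plat, Furin, Nrp1, Lrp1, Egr1, Spry1, Has2, Cd34, Dcn, Cldn5 and the neighbours were named outside that rule, for their role, position or low counts. Mki67 and Top2a were named after their values were seen, as opposite in direction to Mcm2. Members, lists and tests were chosen with earlier results of these data known.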

Additional observations from a re-analysis of the deposited data

How the results depend on the processing

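Pdgfb kept its call and direction under all 16 alternatives (log2 fold change 1.99 to 2.08, adjusted p from 1.07e-10 to 0.000375), and Pdgfa, Pdgfc and Pdgfrb were called under none. Pdgfd lost its call with DESeq2 (log2 fold change 1.16, adjusted p = 0.112), with a replicate block (1.16, 0.0764) and with each library left out (1.06 to 1.21), where fewer samples estimate the spread, so that the number of family genes called was 1 in place of 2 with DESeq2, with the block and in every fit that left out a library (1 to 1). The number of all genes called, 277 with 33 lower, was 164 to 357 with a library left out, the lowest without H3CIT+dsDNA replicate 1 (184 without control replicate 1) and with 17 to 57 lower, and 459 with 96 lower with trended dispersion and a likelihood ratio test in place of the quasi-likelihood test, added after seeing the data; the cause was not tested. The fit with a replicate block called 212 genes and shared 200 with the 277. Deviations from the group means, across genes, of libraries with equal replicate numbers had correlations of -0.0424, 0.00839 and 0.0350, which give no sign of pairing. The 3 count ratios moved by at most 0.07, 0.09 and 0.07 on the log2 scale (Pdgfb to Pdgfa, Pdgfd to Pdgfc, Pdgfb to Pdgfrb), less than the SD pooled over both groups (0.09, 0.13 and 0.11) but not less than the smaller group SD. With a replicate block their p was 0.25 by exact sign flips, the smallest 3 pairs allow. Of 991 values of 62 other named genes tested, Mki67 and Top2a not included, the call was the same in 964, lost in 24 and gained in 3, and 0 reversed. The changes fell on Braf, Cxcl1, Hif1a, Kitlg, Mcm2, Smtn and Sp3. Counts are fewest for Pdgfra and, at under 50 a library, Pdgfd.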
